A study of Mus musculus with 2 samples.

Results

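The genes of DNA replication and mitosis were described in leukocytes sorted from mouse liver tumours. They are 45 genes of the 32285 in the count matrices, taken by symbol from a fixed list, and all 45 were found. C57BL/6 mice were fed Akkermansia muciniphila (AKK), a mucin-degrading gut bacterium, at a dose of 5e9 CFU (viable bacteria), while the control mice were given PBS, a salt buffer. In both groups feeding began 2 weeks before a methionine- and choline-deficient (MCD) diet, which models fatty liver disease. After 2 weeks of diet, luciferase-bearing cells of RIL-175, a mouse hepatocellular carcinoma line, were implanted into the liver, and feeding paused for 6 days after the operation. Live CD45-positive cells were profiled with droplet RNA-seq that reads transcript 3′ ends and counts unique molecular identifiers (UMIs), one per captured transcript. The sources used here give neither the age and sex of the mice nor whether several mice were pooled.

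The design asks how the AKK cells differ from the PBS cells. There was 1 library per group, so nothing was tested between the groups. "Higher" and "lower" describe these libraries, and the 95% intervals hold counting error only, with no spread between animals. After filtering, 6177 AKK cells with 67048723 UMIs (median 6347 per cell) and 4646 PBS cells with 59718123 UMIs (median 6743) remained, and 8 barcode sequences occurred in both libraries. Levels are CPM, that is UMIs scaled to the total UMIs of a cell class in a library, and a ratio is AKK over PBS. Classes were named from marker genes and are called X-like. Cell cycle genes were left out of the genes used for clustering, so that a class was not defined by the genes described.

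Before a cell divides it copies its DNA. The MCM helicase is loaded on replication origins with Cdc6 and Cdt1, nucleotides are made by enzymes such as ribonucleotide reductase, and the sliding clamp Pcna holds the polymerases on the template. In mitosis the kinase Cdk1 with its B-type cyclins, the Aurora and Polo kinases and spindle proteins condense, align and part the chromosomes. E2F factors are known to drive many replication genes before DNA synthesis, whereas mitotic genes are known for CCAAT boxes bound by NF-Y and for the cell cycle homology region (CHR) bound by the MuvB complex. In bone marrow, dividing myeloid precursors give rise to neutrophils, which no longer divide when mature. T cells divide after they recognise antigen.

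Promoters of 38 of the 45 genes were found in RefSeq's promoter table (build GRCm38.p6), as 250 bases before to 50 after the start. Only the first listed start of each gene was counted, so a further start of Uhrf1 with 1 E2F site was left out. Not found by symbol were Mcm4, Gins2, Ccne2, Ccna2, Aurkb, Tpx2 and Stmn1. 3 motifs were searched on both strands. An E2F site was TTTCCCGC, TTTGGCGC, TTTGCCGC or TTTCGCGC, a CHR was TTTGAA or TTCGAA, and a CCAAT box was CCAAT. Among the genes of the replication set (named with the cycling cells below) an E2F site lay in 7 of 16 promoters (43.8%). It lay in 1 of 17 (5.88%) of the mitotic set and in 2.32% of all 27025 promoters at a gene's first listed start. The CHR went the other way, with 3 of 16 (18.8%) replication promoters, 13 of 17 (76.5%) mitotic promoters and 19.4% of all promoters. CCAAT boxes were in 10 of 16 replication promoters (62.5%) and 15 of 17 mitotic promoters (88.2%), against 37.9% of all promoters. A match is only a string of letters and shows no binding.

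These promoters are shown because they carry the motifs of one set or of both. The helicase genes Mcm5 (chr8:75109259-75109508, plus strand) and Mcm6 (chr1:128359706-128359955, minus strand) stand for the replication set. Cdk1 (chr10:69352913-69353162, minus strand) holds all 3 motifs. Ccnb2, a B-type cyclin (chr9:70421555-70421804, minus strand), and Top2a, the topoisomerase that untangles sister DNA (chr11:99024190-99024439, minus strand), stand for mitosis. Each is the 250 bases before the start, 5′ to 3′ on the gene's strand, with the motifs in capitals. Where capitals run on for longer than one motif, 2 motifs overlap or touch.
Mcm5: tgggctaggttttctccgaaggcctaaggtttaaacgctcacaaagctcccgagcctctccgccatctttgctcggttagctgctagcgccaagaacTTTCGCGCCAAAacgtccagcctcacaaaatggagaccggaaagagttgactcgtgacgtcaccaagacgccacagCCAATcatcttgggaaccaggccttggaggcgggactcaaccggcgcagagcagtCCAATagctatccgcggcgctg
Mcm6: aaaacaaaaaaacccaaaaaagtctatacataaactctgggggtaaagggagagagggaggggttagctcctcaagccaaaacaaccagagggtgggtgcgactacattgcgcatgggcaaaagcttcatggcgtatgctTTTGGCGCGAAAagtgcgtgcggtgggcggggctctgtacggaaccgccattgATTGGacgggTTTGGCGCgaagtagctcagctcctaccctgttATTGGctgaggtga
Cdk1: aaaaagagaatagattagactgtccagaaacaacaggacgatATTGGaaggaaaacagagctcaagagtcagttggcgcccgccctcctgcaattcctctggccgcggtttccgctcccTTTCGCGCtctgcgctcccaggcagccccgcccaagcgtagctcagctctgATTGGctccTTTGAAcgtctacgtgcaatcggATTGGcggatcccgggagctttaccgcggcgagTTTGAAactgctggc
Ccnb2: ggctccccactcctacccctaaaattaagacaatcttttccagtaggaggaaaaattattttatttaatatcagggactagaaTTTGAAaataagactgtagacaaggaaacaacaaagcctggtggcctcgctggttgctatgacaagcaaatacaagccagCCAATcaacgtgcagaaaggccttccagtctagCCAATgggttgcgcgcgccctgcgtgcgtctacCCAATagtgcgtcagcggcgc
Top2a: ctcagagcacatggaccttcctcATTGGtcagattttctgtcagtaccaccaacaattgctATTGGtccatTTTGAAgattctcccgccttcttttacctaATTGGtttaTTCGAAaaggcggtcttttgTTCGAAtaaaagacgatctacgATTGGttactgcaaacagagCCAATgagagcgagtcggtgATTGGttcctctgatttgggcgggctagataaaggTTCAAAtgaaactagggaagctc

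The Mcm5 run TTTCGCGCCAAA holds 2 overlapping E2F sites, one on each strand, and Mcm6 holds 3 E2F sites in the printed stretch. Neither has a CHR. Cdk1 has 1 E2F site, 2 CHRs and 3 CCAAT boxes. In Top2a the printed stretch has 4 CHRs and 6 CCAAT boxes and no E2F site.

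Summed over all kept cells, the 45 genes were at about the same level in both libraries. They made up 2717 CPM in AKK and 2670 CPM in PBS cells, a ratio of 1.02 (1.01 to 1.02). No member was 1.5-fold higher or lower, of all 45 measured. Over the 18706 genes with at least 20 UMIs, 8.51% were at least 1.5-fold higher and 11.4% at least 1.5-fold lower in AKK. Member ratios ran from 0.811 for Gins2 to 1.37 for Aurka. The counting interval lay above 1 for 23 members, below 1 for 7 and held 1 for 15.

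Of the genes that license and fire origins, Mcm6 differed most in the AKK direction, at 66.4 CPM in AKK and 54.2 CPM in PBS cells. The other subunits of the MCM helicase were Mcm2 at 25.4 in AKK and 25.5 in PBS, Mcm3 at 37.7 and 38.1, Mcm4 at 35.7 and 33.8, Mcm5 at 31.4 and 32.7 and Mcm7 at 32.5 and 34.7 CPM. The loading factor Cdc6 stood at 6.74 CPM in AKK and 5.69 in PBS cells and its partner Cdt1 at 32.3 and 31.97. Gins2, a subunit of the GINS complex that activates the helicase, was the lowest in ratio, at 7.95 in AKK and 9.80 in PBS cells. In nucleotide supply, the ribonucleotide reductase subunits split, with Rrm1 at 54.1 in AKK and 48.7 in PBS and Rrm2 at 32.3 in AKK and 36.7 in PBS. The thymidylate synthase gene Tyms was at 19.7 and 19.9, the thymidine kinase gene Tk1 at 13.5 and 13.4 and Dut, whose enzyme clears dUTP, at 68.9 in AKK and 79.2 in PBS cells.

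At the fork, the clamp gene Pcna stood at 154 CPM in AKK and 144 in PBS cells, and Pclaf, a clamp-binding factor, at 70.3 and 59.8. The flap nuclease gene Fen1 was at 15.8 in AKK and 13.9 in PBS, the uracil-removing Ung at 5.34 and 5.74, and Uhrf1, which helps copy DNA methylation, at 23.98 and 24.3. Slbp, which binds histone mRNA, was at 75.5 in AKK and 63.8 in PBS cells. Genes for the early cyclins were at 4.76 in AKK and 5.51 in PBS (Ccne1) and at 8.67 and 7.64 (Ccne2). The later cyclins stood at 28.9 and 24.1 (Ccna2), 20.9 and 19.7 (Ccnb1) and 23.2 and 24.5 (Ccnb2), and their partner Cdk1 at 24.3 in AKK and 27.7 in PBS cells. Among the mitotic kinase genes, Aurka (chromosome 2, 172356190 to 172370535, GRCm38) was at 16.7 in AKK and 12.2 in PBS cells, Bub1 at 14.3 and 11.6, Plk1 at 13.6 and 12.8 and Aurkb at 14.2 and 13.3.

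On chromosomes and centromeres, the proliferation marker Mki67 stood at 111 CPM in AKK and 107 in PBS cells and Top2a at 125 and 119. Cenpa, the centromeric histone, was at 61.9 in AKK and 54.3 in PBS, and the kinetochore genes Cenpe and Cenpf at 42.7 and 34.9 and at 42.8 and 33.4. Birc5, of the chromosomal passenger complex, was at 35.03 in AKK and 32.5 in PBS, and the chromatin protein gene Hmgb2 at 685 and 708. Spindle genes were mostly a little higher in AKK, with Tpx2 at 36.6 in AKK and 32.3 in PBS, the motor Kif11 at 40.9 and 32.4, Nusap1 at 36.9 and 33.7 and Hmmr at 20.4 and 15.6. The tubulin gene Tubb5 was lower, at 314 in AKK and 354.3 in PBS, and Stmn1, which destabilises microtubules, was at 91.9 and 92.1. For mitotic exit, the ubiquitin-conjugating Ube2c was at 77.1 in AKK and 73.1 in PBS and the APC activator Cdc20 at 16.9 and 13.9. In the GENCODE annotation, 16 members overlap a gene on the opposite strand: Mcm7, Gins2, Tk1, Fen1, Pclaf, Slbp, Ccne2, Ccna2, Plk1, Mki67, Top2a, Cenpf, Kif11, Nusap1, Ube2c and Cdc20. On the same strand 9 members overlap a gene: Cdt1, Mcm7, Rrm1, Pclaf, Top2a, Tpx2, Kif11, Nusap1 and Stmn1. The sources used here do not say whether counting used strand. Tubb5 and Hmgb2 have similar family members or copies, so their levels are uncertain where reads could be split.

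The classes differed far more than the libraries. Over both libraries, 40 of the 45 members were highest in myeloid precursor-like cells and the remaining 5 (Cenpe, Cenpf, Tpx2, Tubb5 and Ube2c) in tumour/epithelial-like cells. The summed level was 10123 CPM in AKK and 9305 CPM in PBS precursor-like cells and 872 and 902 CPM in neutrophil-like cells. Between these lay tumour/epithelial-like cells at 5210 in AKK and 4128 in PBS, immature neutrophil-like cells at 3829 and 6183, T-like cells at 2663 and 1671 and plasma-like cells at 2115 and 2256 CPM. Lower still were classical monocyte-like cells at 1744 in AKK and 1586 in PBS, NK/ILC1-like cells at 1660 and 1439, B-like cells at 1406 and 1082 and macrophage-like cells at 1335 and 1212 CPM. Tumour/epithelial-like cells had a low level of Ptprc, the gene of the sorted antigen CD45, at 44.2 CPM in AKK and 30.4 in PBS. In T-like cells it was at 2625 and 2163. Still, Ptprc was detected in 71.2% of AKK and 64.7% of PBS tumour/epithelial-like cells, which hold many UMIs each.

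**Figure D1:**
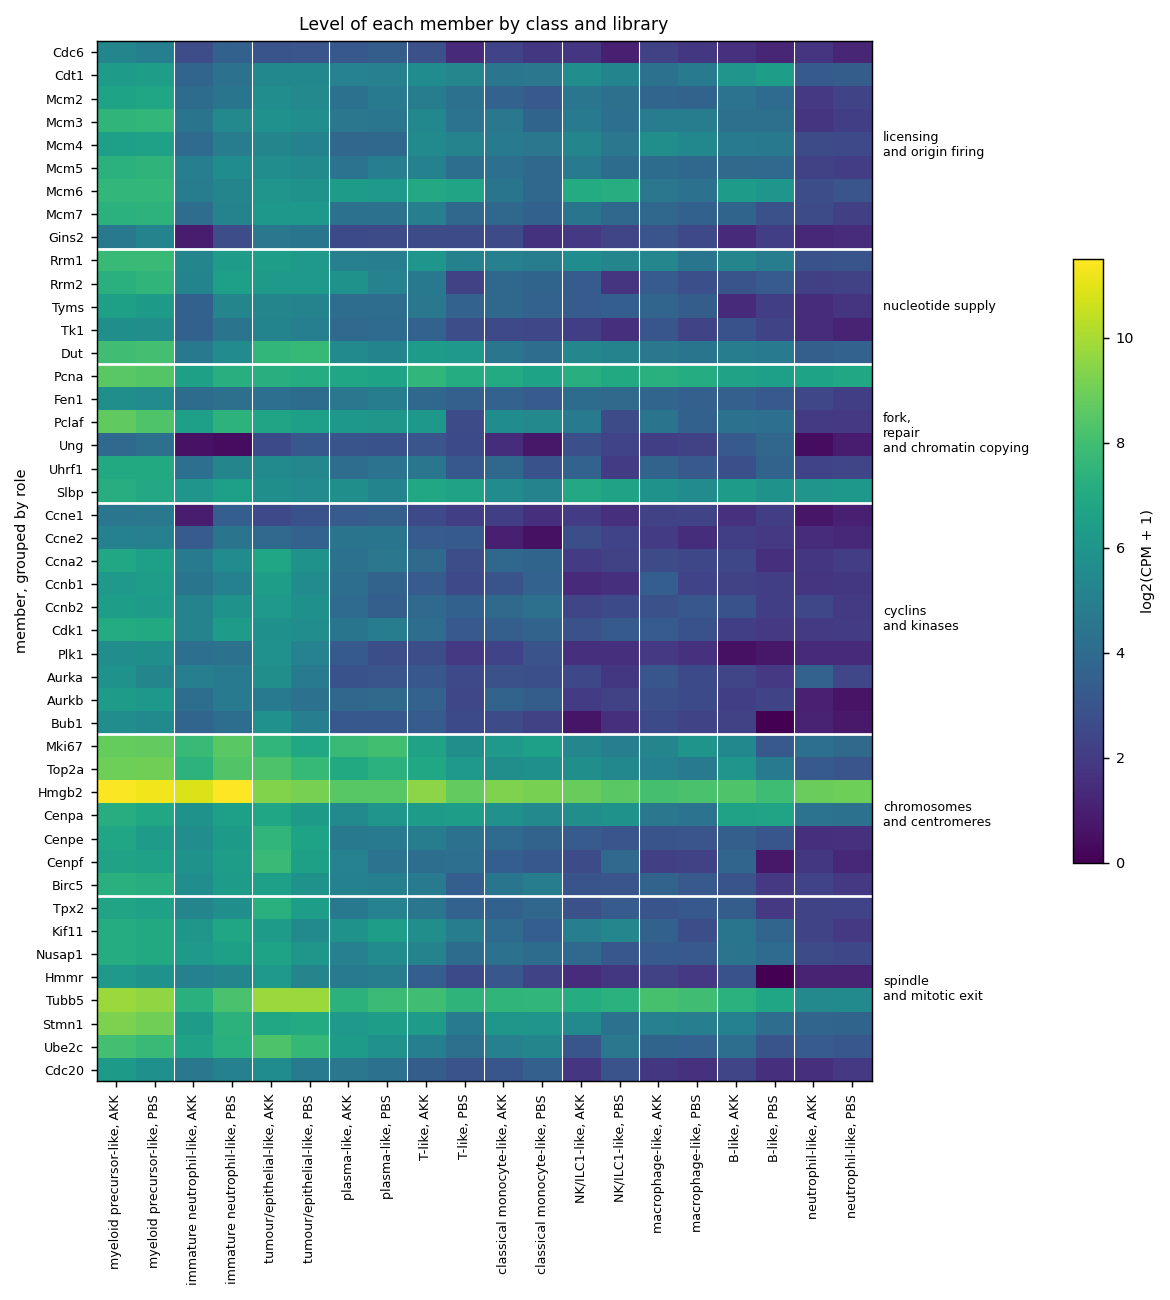
Level of each of the 45 members (rows, by role) in each described class and library (columns, AKK left of PBS), as log2 of CPM plus 1, with the scale running from dark (low) to yellow (high). Over both libraries 40 members are highest in precursor-like cells, and most members are dark in neutrophil-like cells.

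A few classes held most of the members' transcripts. Precursor-like cells were 1.68% of AKK and 2.00% of PBS cells but held 23.6% of the members' UMIs in AKK and 25.3% in PBS. Tumour/epithelial-like cells, which are large (medians of 77159 UMIs in AKK and 73738 in PBS), were 1.80% and 3.36% of cells and held 23.9% and 29.3% of the members' UMIs. T-like cells, 13.96% of AKK and 9.45% of PBS cells, held 12.4% in AKK and 4.62% in PBS. Immature neutrophil-like cells, 2.93% and 4.05% of cells, held 4.56% in AKK and 12.5% in PBS. Neutrophil-like cells were the most numerous class, at 36.7% of AKK and 40.6% of PBS cells, and held 4.54% and 5.44%. The similar totals thus had different sources, with more from T-like and plasma-like cells in AKK and more from immature neutrophil-like, macrophage-like and tumour/epithelial-like cells in PBS. Plasma-like cells held 6.41% in AKK and 1.94% in PBS, and macrophage-like cells 5.61% and 8.41%. These shares join the number of cells in a class with the level in them. Plasma-like cells were 3.59% of AKK and 1.14% of PBS cells, while their level was lower in AKK, at 2115 against 2256 CPM. Macrophage-like cells (8.66% of AKK and 13.1% of PBS cells) and tumour/epithelial-like cells were a larger share of PBS cells, while their levels were higher in AKK. In T-like and immature neutrophil-like cells, cell share and level went the same way.

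**Figure D2:**
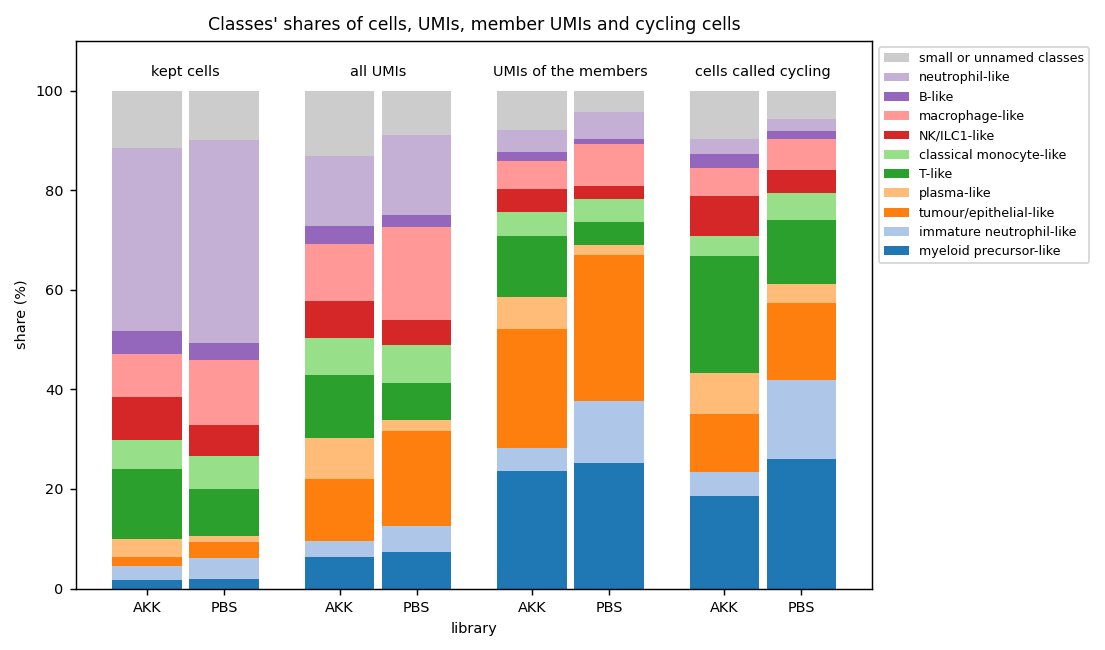
Stacked bars give each class's share, in percent, of kept cells, of all UMIs, of the members' UMIs and of cells called cycling, with AKK left of PBS in each pair. T-like cells hold 12.4% of the members' UMIs in AKK and 4.62% in PBS, and immature neutrophil-like cells 4.56% and 12.5%.

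To count cells, each cell was thinned to 2000 UMIs and called cycling with at least 4 UMIs from at least 3 genes of a 39-gene set. The set leaves out 6 members (Tubb5, Hmgb2, Stmn1, Slbp, Dut and Ung). It consists of 19 replication genes, which are the remaining licensing, nucleotide and fork genes with Ccne1 and Ccne2, and of 20 mitotic genes. Thinning left out 387 AKK and 431 PBS cells with fewer UMIs. Cycling cells were 6.51% of AKK cells (377 of 5790, interval 5.89 to 7.18) and 6.12% of PBS cells (258 of 4215, 5.42 to 6.89). The difference of 0.390 points (-0.586 to 1.34) lay within counting error, and its direction depended on the call. It was -0.115 with another random draw of the thinned UMIs, -0.343 with at least 6 UMIs from 4 genes and -0.0635 after thinning to 4000 UMIs, while thinning to 1000 UMIs gave 1.33 (0.133 to 2.52). Weighing classes by their numbers accounted for -0.0695 points of it and shares within classes for 0.460 points. Cycling cells held 20.1% of all UMIs in AKK and 20.6% in PBS but 66.3% and 65.2% of the members' UMIs. In neutrophil-like cells, which are not known to divide, the cycling share was 0.531% in AKK (11 of 2070) and 0.341% in PBS (6 of 1762). This serves as a background of the call for cells with that class's low level of the set. Median depths of that class before thinning were 4035 UMIs in AKK and 4780 in PBS.

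Precursor-like cells were mostly cycling in both libraries, at 81.4% in AKK (70 of 86) and 84.8% in PBS (67 of 79). Tumour/epithelial-like cells followed at 47.3% in AKK (44 of 93) and 33.6% in PBS (40 of 119), a difference of 13.7 points (0.444 to 26.5). That interval leaves out 0 only narrowly and did not do so under 6 other settings, among them another random draw of the thinned UMIs (9.03 points, -4.18 to 22.0), thinning to 4000 UMIs (7.64), no thinning (7.35) and stricter barcode filters (12.8). Immature neutrophil-like cells were at 10.5% in AKK (18 of 171) and 22.7% in PBS (41 of 181), a difference of -12.1 points (-19.7 to -4.35), which was between -9.75 and -12.97 points under the 11 alternatives, each with an interval below 0. For T-like cells the shares were 10.6% in AKK (89 of 840) and 7.89% in PBS (33 of 418), and the interval of the difference held 0 (2.70 points, -0.841 to 5.87). It left out 0 with no doublets removed (3.44 points), stricter barcode filters (3.69), cycle genes kept in clustering (3.66) and resolution 2.0 (4.69, 1.04 to 7.90), and another random draw gave 0.909 points. In the remaining classes the interval of the difference held 0. Plasma-like cells were at 14.03% in AKK (31 of 221) and 20% in PBS (10 of 50), NK/ILC1-like cells at 5.86% (30 of 512) and 4.36% (12 of 275) and classical monocyte-like cells at 4.18% (15 of 359) and 4.55% (14 of 308). Macrophage-like cells were at 4.21% in AKK (21 of 499) and 2.78% in PBS (16 of 576), where another random draw gave a difference of 2.61 points (0.288 to 5.14), and B-like cells at 3.94% (11 of 279) and 2.58% (4 of 155). Except in neutrophil-like cells, every share named here was above the 0.531% (AKK) and 0.341% (PBS) of the background class. That background does not carry over to classes whose remaining cells held more of the set. Neutrophil-like cells not called cycling held a mean of 0.532 set UMIs in AKK and 0.539 in PBS after thinning. Such T-like cells held 1.15 and 1.21, NK/ILC1-like cells 1.13 and 1.11 and B-like cells 1.01 and 1.11. In AKK, 52 of 89 cycling T-like, 20 of 30 NK/ILC1-like and 9 of 11 B-like cells had at most 5 set UMIs. In PBS, 23 of 33, 9 of 12 and 3 of 4 did. Being above the background thus does not show that the lymphocytes, or the cells of the other classes with more of the set, divide when called cycling. Without thinning, a cell was called by a limit of 0.2% of its UMIs in the set, with no minimum of 3 genes. Cells under 2000 UMIs were then counted too. The shares were 4.99% in AKK and 3.19% in PBS T-like cells, 11.0% and 21.8% in immature neutrophil-like cells and 43.2% and 35.9% in tumour/epithelial-like cells. Over all cells that limit turned the direction, with 4.97% in AKK and 5.66% in PBS.

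**Figure D3:**
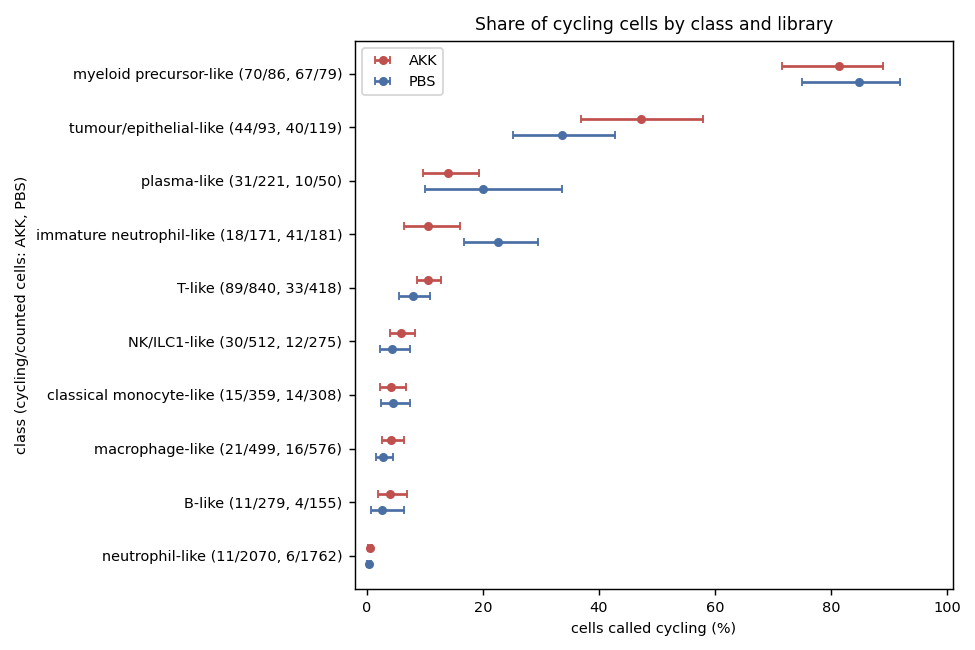
Share of cycling cells (horizontal axis, percent of thinned cells) in each class (rows, with the cell numbers), with the AKK point above the PBS point and exact 95% binomial intervals that cover counting error only. Precursor-like cells are above 80% in both, immature neutrophil-like cells are at 10.5% in AKK and 22.7% in PBS, and neutrophil-like cells are under 1%.

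In T-like cells the members were higher in the AKK library, with a summed ratio of 1.63 for the 19 replication genes and 1.57 for the 20 mitotic genes. Of 45 members with enough UMIs, 27 were at least 1.5-fold higher in AKK and 0 lower, where over all 12111 genes 6.63% were higher and 9.99% lower. The members' median ratio was 1.78, against 0.988 for all genes, and their summed ratio was 1.59 (1.55 to 1.64). Pclaf (chromosome 9, 65890237 to 65903266) had 581 UMIs in AKK and 24 in PBS T-like cells, that is 68.6 and 5.44 CPM, a ratio of 12.6 (8.38 to 19.8). Rrm2, the S-phase subunit of ribonucleotide reductase (chromosome 12, 24708241 to 24714146), had 204 UMIs in AKK and 17 in PBS, 24.1 and 3.85 CPM, a ratio of 6.25 (3.81 to 10.9). The loading factor gene Cdc6 was at a ratio of 3.87 (1.75 to 10.1), Stmn1 at 2.90 and Uhrf1 at 2.80. The libraries stood far apart for these 5, whereas the genes most often used as proliferation markers differed less. Mki67 was at 96.4 CPM in AKK and 50.6 in PBS (1.91, 1.64 to 2.22), Top2a at 116 and 73.0 (1.59), Mcm5 at 31.7 and 16.6 (1.92), Ccnb1 at 8.73 and 4.76 (1.83) and Pcna at 189 and 137 (1.37). The centromere genes Cenpf and Cenpa were the lowest in ratio, at 0.973 (0.733 to 1.30) and 0.946 (0.833 to 1.07), with intervals that held 1.

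Cells with the most cycle transcripts weighed on these T-like values. Of the 11812 UMIs of the 39-gene set in AKK T-like cells, 32.1% lay in 10 cells, and 955 lay in 1 cell with 121657 UMIs in all. In PBS T-like cells 25.4% of 3832 UMIs lay in 10 cells. Over 40000 UMIs there were 2 T-like cells in AKK and 0 in PBS. Without them the summed ratio was 1.45 and 20 members were 1.5-fold higher, and with each cell weighted alike the ratio was 1.26. T-like cells lay in 3 clusters. The cluster with Foxp3, the regulatory T cell factor (325 CPM in AKK and 345 in PBS, with the IL-2 receptor gene Il2ra at 1067 and 875), had members at 4561 CPM in AKK and 1865 in PBS, a ratio of 2.45 (2.31 to 2.59). Cycling cells were 17.3% of it in AKK (22 of 127) and 8.11% in PBS (6 of 74), a difference of 9.21 points (-0.940 to 17.9). The largest cluster was mixed, with Cd8a at 387 CPM in AKK and 331 in PBS and Cd4 at 86.5 and 87.4. It was at 2430 and 1741 CPM (ratio 1.40) and at 10.98% (55 of 501) and 9.35% (26 of 278). In its sub-clusters with Cd8a among the leading genes, 12 of 86 AKK and 12 of 95 PBS, 15 of 95 and 4 of 42, and 17 of 173 and 8 of 58 cells cycled. Where Tnfsf8, Cd40lg and Cd4 were among them, 9 of 124 and 1 of 41 cells did, and where Tnfsf8 and Tnfsf11 led, 2 of 23 and 1 of 42. The cluster with Lef1, a factor of naive T cells, at 1142 in AKK and 1509 in PBS, was at 1900 and 1182 CPM (1.61) and at 5.66% (12 of 212) and 1.52% (1 of 66). Differences between the clusters were not tested. Summed CPM of other cells' markers in T-like cells was 852 in AKK and 211 in PBS for the plasma list (7 of 7 detected) and 650 and 1142 for the neutrophil list (9 of 9). Their part in the result was not tested.

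**Figure D4:**
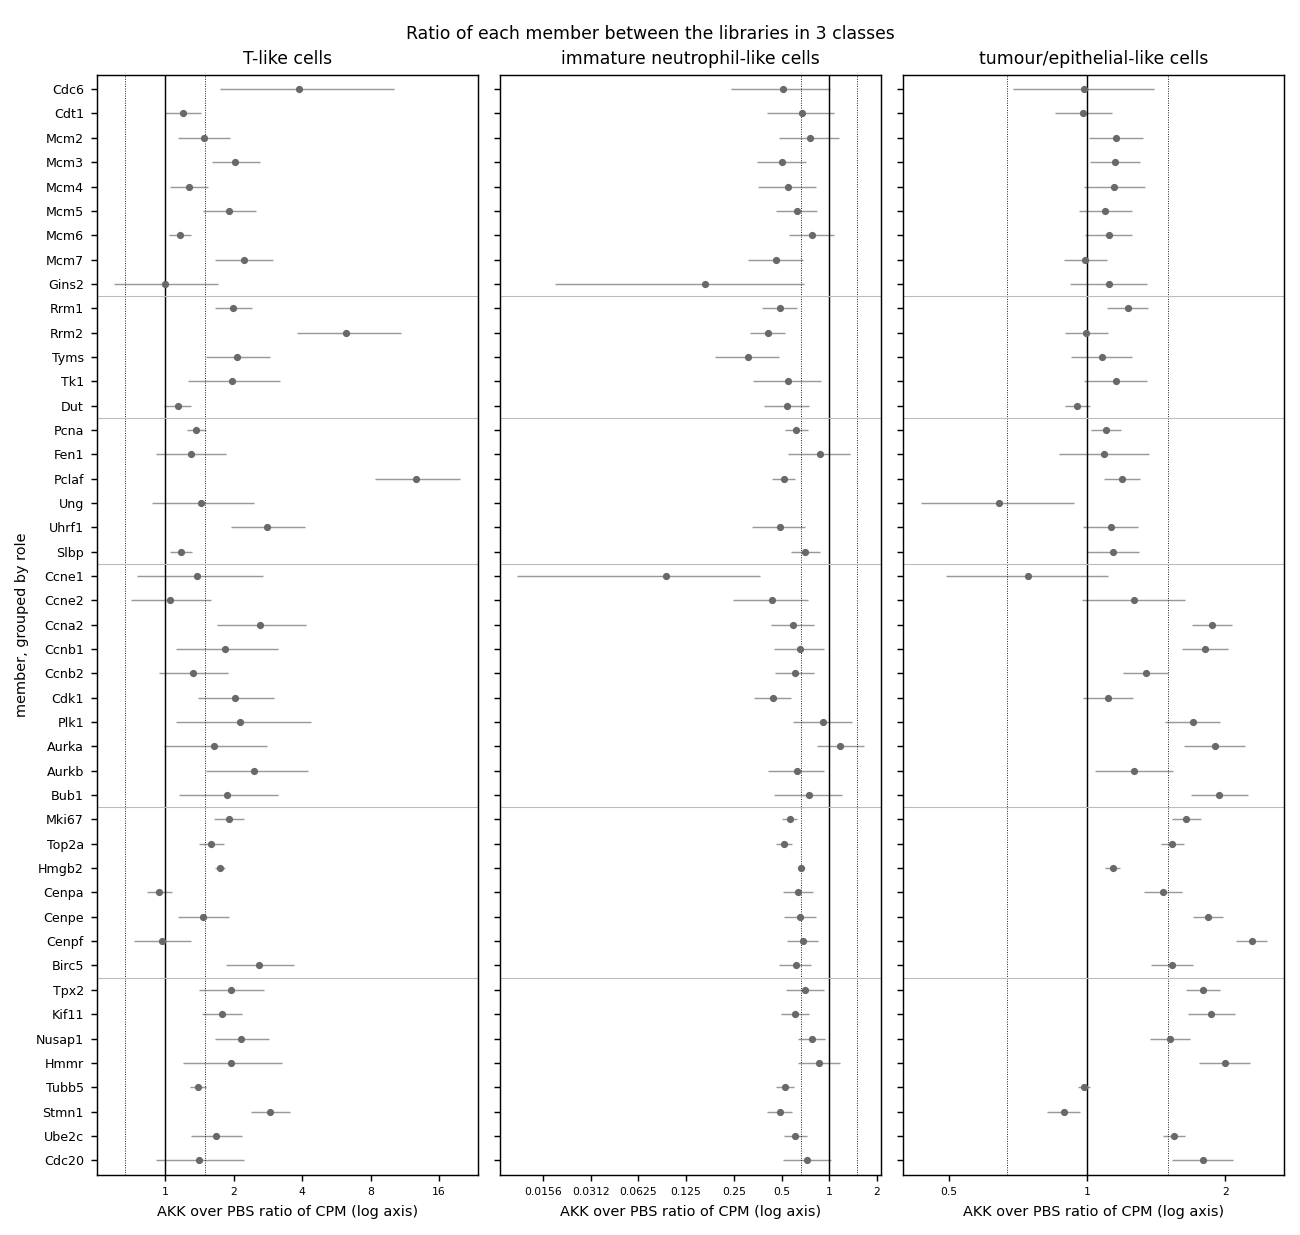
Ratio AKK over PBS of each member's CPM (horizontal log axis, with a range of its own in each panel) in T-like, immature neutrophil-like and tumour/epithelial-like cells, with exact 95% intervals that cover counting error only and dotted lines at 1.5-fold either way. In T-like cells 42 of 45 ratios are above 1, in immature neutrophil-like cells 43 of 44 measured ratios are below 1, and in tumour/epithelial-like cells the 16 members past 1.5-fold to the right are all mitotic genes.

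In immature neutrophil-like cells the members were lower in the AKK library. These are cells with transcripts of secondary granule genes such as Ngp, Camp and Ltf. Of 44 measured members 31 were at least 1.5-fold lower in AKK and 0 higher, where 17.9% of all 8764 genes were lower and 8.55% higher. The median ratio was 0.610, against 0.955 for all genes, and the summed ratio 0.619 (0.603 to 0.635). Tyms was at 11.1 CPM in AKK and 36.1 in PBS, a ratio of 0.307 (0.189 to 0.479), Rrm2 at 36.0 and 88.0 (0.409), Ccne2 at 8.76 and 20.2 (0.434), Cdk1 at 34.1 and 77.4 (0.441) and Mcm7 at 16.1 and 34.8 (0.464). Of these 5, all but Cdk1 belong to the replication set. Ccne1 and Gins2 had lower ratios still but few UMIs, 2 in AKK and 32 in PBS for Ccne1 and 2 and 18 for Gins2. Mki67 was at 214 in AKK and 380 in PBS (0.564, 0.505 to 0.628), Top2a at 173 and 332.7 (0.520), Pcna at 90.4 and 146 (0.620), Mcm5 at 29.5 and 47.3 (0.625) and Ccnb1 at 21.2 and 32.6 (0.650). Aurka, at 29.5 in AKK and 25.2 in PBS (1.17, 0.831 to 1.65), was the 1 measured member above 1. The summed ratio of the 19 replication genes was 0.533 and that of the 20 mitotic genes 0.614.

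Nearly all cycling cells of this class lay in 1 sub-cluster, led by Ngp, Camp, Ltf, Chil3 and Fcnb, the ficolin gene of early granulocytes. There, 16 of 17 AKK cells and 40 of 42 PBS cells were cycling, 94.1% and 95.2%. A second sub-cluster held the remaining 2 cycling cells in AKK and 1 in PBS. The 17 AKK and 42 PBS cells were taken from 171 and 181 thinned cells of the class, so the libraries differed in the number of cells in the cycling sub-cluster. As nearly all its cells were cycling, these numbers restate the class's cycling shares and are no separate observation. The 10 cells with most cycle transcripts held 69.8% of the set's 3429 UMIs in AKK and 37.9% of 8656 UMIs in PBS. Median depth was 10317 UMIs in AKK and 14405 in PBS cells of the class. Its own marker list (7 of 7 detected) summed to 65149 CPM in AKK and 63902 in PBS and the precursor list (1 of 7 at 0 in each library) to 188 and 187. The plasma list (1 of 7 at 0 in AKK and 2 in PBS) summed to 1036 in AKK and 305 in PBS and the macrophage list (1 of 8 at 0 in AKK and 0 in PBS) to 71.0 and 152, and their part in the result was not tested. Without the 6 members outside the cycling set the summed ratio was 0.588.

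In tumour/epithelial-like cells the mitotic genes were higher in AKK and the replication genes differed little. The 20 mitotic genes summed to 2375 CPM in AKK and 1424 in PBS, a ratio of 1.67, and the 19 replication genes to 959 and 869, a ratio of 1.10. Of 45 members 16 were at least 1.5-fold higher, all of them in the mitotic set, and 1 (Ung, at 5.04 CPM in AKK and 7.86 in PBS) lower, where 9.7% of all 13247 genes were higher and 6.26% lower. Cenpf (chromosome 1, 189640606 to 189688086), a kinetochore protein gene, was at 211 CPM in AKK and 92.5 in PBS, a ratio of 2.28 (2.11 to 2.47). Next came the spindle gene Hmmr at 72.3 in AKK and 36.3 in PBS (1.99), the checkpoint kinase gene Bub1 at 56.1 and 28.95 (1.94), Aurka at a ratio of 1.89 and Ccna2 at 111 and 59.5 (1.87). Ccnb1 was at 82.2 in AKK and 45.6 in PBS (1.80), Mki67 at 189 and 115 (1.65) and Top2a at 315 and 206 (1.53). Pcna stood at 153 in AKK and 139 in PBS (1.10), Mcm5 at 48.7 and 44.5 (1.09) and Rrm2 at 70.6 and 71.0 (0.995). Stmn1 was at 115 in AKK and 130 in PBS (0.888, 0.818 to 0.964).

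In cycling tumour/epithelial-like cells the replication genes made up 33.0% of the set's UMIs in AKK and 41.6% in PBS. The shares of cycling cells in its sub-clusters were 81.8% in AKK (18 of 22) and 64.3% in PBS (18 of 28) where Rbp4 and Krt8 led, 45% (18 of 40) and 37.8% (17 of 45) where Cdh6 and Hmga2 led, 20% (5 of 25) and 5% (2 of 40) where Cdh6 and Cdh13 led, and 50% in each library (3 of 6) in a small one where Krt8 and Krt18 were among the leading genes. Of the set's 27813 UMIs in AKK, 52.4% lay in 10 cells, and of 25974 in PBS, 39.8%. The epithelial marker list (6 of 6 detected) summed to 3658 CPM in AKK and 3976 in PBS. Of other cells' lists, the plasma list (7 of 7 detected) summed to 999.1 in AKK and 331 in PBS. The classical monocyte list (6 of 6 detected) summed to 948 in AKK and 779 in PBS. The neutrophil list (9 of 9) was at 838 and 991 and the macrophage list (8 of 8) at 252 and 319. The fibroblast list (2 of 5 at 0 in AKK and 1 in PBS) summed to 30.9 and 4.15. The endothelial list (4 of 6 at 0 in AKK and 0 in PBS) was at 22.1 and 40.7. The part of these lists in the result was not tested. A CD45 sort is meant to remove these cells, and how they passed it was not tested.

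Precursor-like cells had the highest levels and differed little between the libraries. Only Aurka was 1.5-fold higher in AKK (58.8 CPM in AKK and 37.4 in PBS, ratio 1.57, 1.28 to 1.93) and 0 of 45 members were lower, where 9.8% of 11445 genes were higher and 8.39% lower. The summed ratio was 1.09 (1.07 to 1.10). Other mitotic genes were above 1, with Cdc20 at 1.41 (1.19 to 1.68), Cenpe at 1.35, Ccna2 at 1.30 and Hmmr at 1.27. Lowest in ratio were Gins2 at 24.0 CPM in AKK and 35.8 in PBS (0.670, 0.516 to 0.865), Rrm2 at 158 and 185 (0.850), Ccnb1 at 71.9 and 82.7 (0.870) and Mcm5 at 161 and 180 (0.892). Pcna was at 379 in AKK and 346 in PBS (1.10), Mki67 at 444 and 423 (1.05) and Top2a at 502 and 509 (0.986). In 1 sub-cluster, led by Prtn3, Mpo and Elane, 46 of 48 AKK and 29 of 31 PBS cells cycled. In another, with Elane and Fcnb, 15 of 15 AKK and 31 of 31 PBS cells did. In the sub-cluster with the stem cell genes Mecom and Meis1, 9 of 23 AKK and 7 of 17 PBS cells did, the lowest share of the 3. The class held more neutrophil marker transcripts in PBS (15142 CPM in AKK and 29367 in PBS, 9 of 9 markers detected), and the part of that in the values was not tested.

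In NK/ILC1-like cells 10 of 40 measured members were at least 1.5-fold higher in AKK and 4 lower, where 7.99% of all 10945 genes were higher and 10.1% lower. There the replication genes were higher in AKK (summed ratio 1.27) and the mitotic genes slightly lower (0.913, 0.835 to 0.998). Pclaf was at 25.5 CPM in AKK and 5.30 in PBS (4.81, 2.85 to 8.67), Rrm2 at 9.11 and 2.32 (3.92) and Uhrf1 at 11.3 and 2.98 (3.78), 3 of the 5 genes that led in T-like cells. These rest on 129 AKK and 16 PBS UMIs of Pclaf, 46 and 7 of Rrm2 and 57 and 9 of Uhrf1. Of the NK/ILC1-like set UMIs, 29.2% of 4295 in AKK and 25.9% of 2252 in PBS lay in 10 cells. At the other end of the NK/ILC1-like ratios Ube2c was at 7.52 in AKK and 23.5 in PBS (0.320) and Cenpf at 5.15 and 14.3 (0.361). In B-like cells the summed ratio of the 45 genes was 1.30 (1.22 to 1.38), and 11 of 31 measured members were at least 1.5-fold higher and 2 lower, where 10.6% of all 9307 genes were higher and 7.03% lower. The mitotic genes were the higher ones (1.65, against 1.05 for replication), with Mki67 at 40.1 in AKK and 8.25 in PBS (4.87, 2.66 to 9.75) and Top2a at 63.6 and 24.7 (2.57). These B-like values rest on 94 AKK and 12 PBS UMIs of Mki67, and 35.9% of the AKK set UMIs lay in 10 cells. Cdt1 was lower there, at 63.2 in AKK and 83.9 in PBS (0.754).

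In macrophage-like cells 6 of 45 members were at least 1.5-fold higher in AKK and 1 lower, where 10.6% of all 12995 genes were higher and 10.1% lower. The members' median ratio was 1.195, against 1.08 for all genes, and rescaled to a median ratio of 1 the summed ratio was 1.01. Mki67 was the lower one (36.6 CPM in AKK and 60.5 in PBS, ratio 0.605, 0.524 to 0.696), and the higher ones included Ccnb1 at 9.93 and 3.97 (2.4997), Pclaf (1.89), Kif11 (1.85), Tk1 (1.83) and Rrm1 at 39.2 and 21.5 (1.82). For Ccnb1 the libraries also stood apart in macrophage-like cells not called cycling, at 8.68 CPM in AKK and 1.88 in PBS. Among their cycling cells, 21 in AKK and 16 in PBS, replication genes made up 66.9% of the set's UMIs in AKK and 42.9% in PBS. Different sub-clusters held most of the class, with 136 and 120 thinned AKK cells in those led by Arg1 and Slc7a2 and by C1qa and Cxcl16, and 170 and 165 PBS cells in those led by Mmp13 and C1qa and by Arg1 and Ccl24. Classical monocyte-like cells had Uhrf1 at 2.12 and Mcm3 at 1.94, and Ccnb1 at 0.601, Birc5 at 0.756 and Mki67 at 0.819. Here too the sub-clusters differed, with 197 AKK and 20 PBS cells in the largest AKK sub-cluster and 13 and 119 in the largest PBS one. With each library clustered alone, the summed monocyte-like ratio was 3.88 in place of 1.10. Plasma-like cells had Rrm2 at 56.5 in AKK and 33.5 in PBS (1.69) and Cenpa at 42.8 and 64.9 (0.659). In PBS, 10 plasma-like cells held 82.4% of the set's UMIs. In neutrophil-like cells Aurka had 107 UMIs in AKK and 43 in PBS (11.3 and 4.47 CPM), a ratio of 2.53 (1.76 to 3.69), and no other member with at least 50 UMIs was both past 1.5-fold and with an interval that left out 1.

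Members varied together across the classes, with exceptions. Over 20 points (10 classes in each of 2 libraries, which share libraries and depth), the Pearson correlation of a member's log level with the mean of the others was highest for Cdk1 (0.979), Nusap1 (0.968) and Birc5 (0.967). It was lowest for Slbp (0.340), Cdt1 (0.391), Ung (0.412) and Mcm6 (0.497), followed by Mcm4 (0.614), Cenpa (0.678), Pcna (0.686) and Hmgb2 (0.688). These points are a description and carry no test. Mcm6 was high in lymphocytes, at 122 CPM in AKK and 105 in PBS T-like cells, and in NK/ILC1-like cells that were not cycling it was at 119 in AKK and 139 in PBS. For Cdt1, B-like cells stood next below precursor-like cells, at 63.2 CPM in AKK and 83.9 in PBS. Of the Pclaf UMIs 93.3% in AKK and 93.2% in PBS lay in cycling cells, of Cenpf 93.2% and 89.7% and of Rrm2 90.2% and 89.8%. Of the Pcna UMIs 43.6% in AKK and 41.0% in PBS did, of Mcm4 42.4% and 42.9% and of Slbp 30.9% and 31.9%. The genes outside the list whose levels were most like the members' mean over the same points were Incenp (0.984), Cdca8 (0.983), Dlgap5 (0.979), Tacc3 (0.978) and Cit (0.978). Incenp and Cdca8 belong, with Birc5 and Aurkb, to the chromosomal passenger complex.

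Cycling cells were also set against the remaining cells of their class for genes that the call did not use. Of 24 further mitosis genes, 16 of 18 measured in T-like, 20 of 20 in immature neutrophil-like and 24 of 24 in tumour/epithelial-like cells were at least 1.5-fold higher in cycling cells in both libraries. Of 18 further replication genes, 11 of 18 measured in T-like, 15 of 15 in immature neutrophil-like and 18 of 18 in tumour/epithelial-like cells were. The share of all measured genes that were higher in both libraries was 6% in T-like, 27.6% in immature neutrophil-like and 7.68% in tumour/epithelial-like cells. The call chose the cells on genes that vary with these, so the counts describe the cells called and test nothing. In T-like cells Stmn1 was at 396 CPM in cycling and 19.2 in remaining AKK cells and at 173 and 13.5 in PBS cells. Hmgb2 was at 2384 and 428 in AKK and 1296 and 337 in PBS. Of the genes that govern the cycle, 3 of 8 measured regulators and 2 of 9 inhibitors were at least 1.5-fold higher in cycling T-like cells in both libraries, and 1 regulator and 1 inhibitor were lower. The lower regulator was the D-type cyclin gene Ccnd3, at 257 CPM in cycling and 415 in remaining AKK T-like cells and at 362 and 585 in PBS, and the lower inhibitor the antiproliferative Btg1, at 1132 and 1970 in AKK and 1368 and 2079 in PBS. In immature neutrophil-like cells 7 of 9 regulators were higher and 0 lower, and of 9 inhibitors 2 were higher and 2 lower. Btg1 there was at 492 and 1290 in AKK and 376 and 956 in PBS, whereas the CDK inhibitor gene Cdkn2c was at 47.5 and 0.591 in AKK and 42.7 and 1.05 in PBS. In tumour/epithelial-like cells 7 of 14 regulators and 3 of 11 inhibitors were higher and 0 lower. Cdkn1a, the gene of the inhibitor p21, was not among them, at 52.1 and 91.5 in AKK and 54.2 and 77.8 in PBS.

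**Figure D5:**
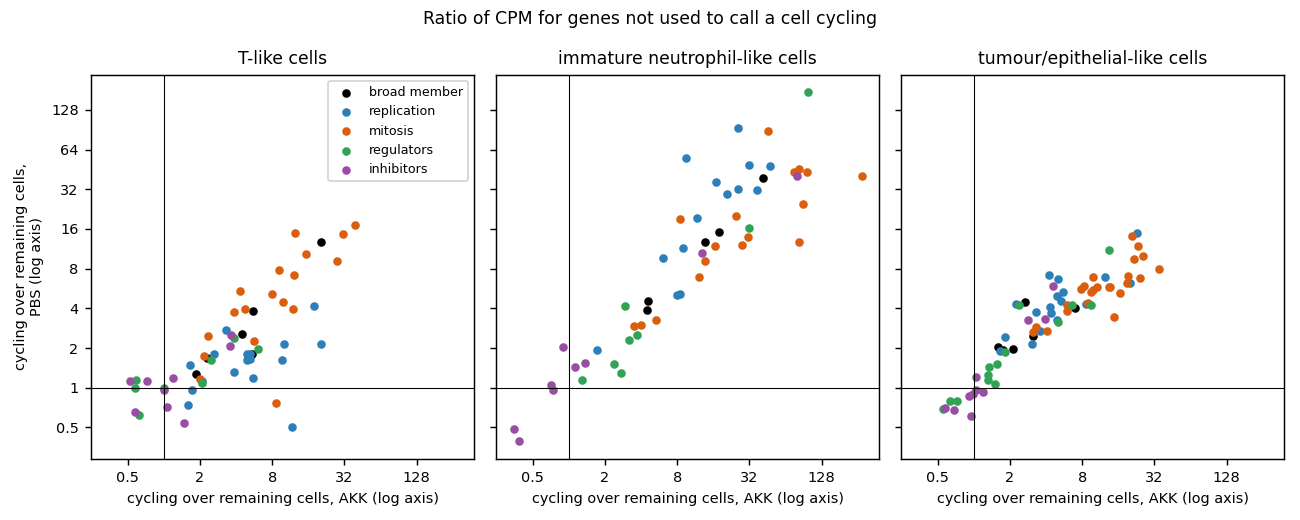
CPM in cycling over CPM in remaining cells of the same class for genes not used to call cycling cells, on log axes, with AKK on the horizontal and PBS on the vertical axis and 1 point per gene (broad member stands for the 6 members outside the cycling set). Mitosis and replication genes lie above 1 in both libraries, except Ckap2l, Nasp, Cdc45 and Atad2 in T-like cells, and the inhibitor Btg1 lies below 1 in both libraries in T-like and immature neutrophil-like cells.

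Between the libraries, the further genes went with the members in T-like, immature neutrophil-like, tumour/epithelial-like and precursor-like cells. They were counted in the same cells as the members, so these counts are no separate observation. In T-like cells 12 of 24 mitosis genes and 8 of 18 replication genes were at least 1.5-fold higher in AKK and 0 lower. Among 14 regulators 6 were higher, including E2f7 at 9.79 CPM in AKK and 2.95 in PBS (3.32) and E2f8 at 6.02 and 1.59 (3.79), repressors of the E2F family, and 1 lower, Ccnd1. Of 10 measured inhibitors 0 passed in either direction. In immature neutrophil-like cells 14 of 18 replication and 11 of 24 mitosis genes were lower and 0 and 1 higher. Of 14 regulators 5 were lower and 0 higher. Of 9 measured inhibitors 3 were lower (Cdkn2c, Rbl1 and Rbl2) and 2 higher, Btg1 (1119 CPM in AKK and 719.8 in PBS, 1.56) and Btg2 (321 and 214, 1.501), and their median ratio was 0.802. In tumour/epithelial-like cells 11 of 24 mitosis genes and 0 of 18 replication genes were higher and 0 of either lower. In precursor-like cells 1 of 24 mitosis and 0 of 18 replication genes were higher and 0 lower. The shares of all genes past 1.5-fold in these classes are those given above with the members. In plasma-like cells 5 of 18 replication and 6 of 22 measured mitosis genes were lower and 0 higher, where 987 of 10375 genes were lower. There 1 of 45 members was lower and 2 higher. In classical monocyte-like cells 8 of 18 replication genes were higher and 0 lower, where 1552 of 10869 genes were higher. Of 21 measured mitosis genes there, 1 was higher and 2 lower, and of 43 measured members 8 were higher and 2 lower.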

How the data were processed

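Each deposited matrix holds raw UMI counts per gene and barcode, not normalized. Per the file headers the authors' matrices came from Cell Ranger 7.1.0. The submitters' processing notes name version 5.0.1 and, as build, mm10. Nothing in the sources used here gives the intron setting or the use of strand. The members and the gene lists were chosen with earlier results of these data known.

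Barcodes (11698 in all) were kept if they had at least 200 genes and mitochondrial UMIs under 15%, which removed 93 AKK and 255 PBS barcodes. Scrublet (in scanpy 1.11.5) scored doublets, and the highest scores were removed at 0.8% per 1000 barcodes, 340 AKK and 187 PBS barcodes, in place of its automatic limit (2.29% of AKK and 1.20% of PBS barcodes). Both libraries were clustered together without integration (Leiden, igraph 0.11.9, resolution 1, 2000 variable genes without cell cycle genes, 30 components, 15 neighbours). Clusters of at least 60 cells were split again at resolution 0.5. A cluster was named from marker lists with a mean score of at least 1 and 3 markers in 20% of cells, and these naming and splitting settings were chosen after the clusters were seen. Classes were planned for at least 100 cells in each library. The limit was lowered to 50 after cell numbers were seen, so that precursor-like and plasma-like cells are described, and T-like cells are given by their clusters in place of a new clustering. Names may differ from those of the study.

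UMIs were summed per class and library and scaled to CPM (Python 3.11.15, numpy 2.4.6). Ratios have exact conditional binomial intervals, shares Clopper-Pearson intervals and their differences Newcombe intervals (scipy 1.17.1), all at 95%. PCR duplicates are collapsed in UMIs, but UMIs and cells of 1 library are not replicates. With 1 library per group there was no test and no p-value. The ratios and their intervals were tested on simulated data. The intervals of the ratios treat UMIs as independent, so they leave out the spread between cells as well as between animals. Gene coordinates and overlaps come from GENCODE M21 (build GRCm38, which mm10 names), and promoters from RefSeq.

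Named genes follow a rule. Every member is given over all cells. Within a class, up to 5 members with the highest and 5 with the lowest ratio are given, among those with at least 50 UMIs and an interval that leaves out 1, plus Mki67, Top2a, Pcna, Mcm5, Rrm2 and Ccnb1. Members named outside it were chosen after their values were seen. Alternatives changed doublet removal, barcode filters, the genes, resolution and libraries clustered, the weight of cells, the members summed, scaling, limits on UMIs, thinning and the limit for a cycling cell. Those without cells over 40000 UMIs and without tumour/epithelial-like cells were added after seeing the data.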

Additional observations from a re-analysis of the deposited data

Results flagged for a closer look

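The summed level of the 45 genes went in opposite directions in 2 classes under the same comparison. The ratio AKK over PBS was 1.59 in T-like and 0.619 in immature neutrophil-like cells. With 1 library per group this difference between the classes was not tested.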

How the results depend on the processing

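Of 283 values recomputed for 32 results under 18 settings, 228 stayed within the interval of the reported value or within 1.5 times the count, 54 lay outside and 1, whose reported interval left out the null, turned its direction. Of 120 cycling differences a further 22 changed sign, all of differences whose reported interval held 0, and 13 changed whether their interval held 0 (tumour/epithelial-like 6, T-like 4, and 1 each for all cells, macrophage-like and monocyte-like cells). Of 76 summed ratios with an interval, 7 changed whether it held 1. The neutrophil-like summed ratio (0.966) was 1.01 without the 6 members outside the cycling set. That setting gave 1.08 for all cells, 1.45 for tumour/epithelial-like, 0.588 for immature neutrophil-like, 1.15 for macrophage-like and 1.06 for precursor-like cells. The T-like ratio was 1.66 with cycle genes kept in clustering, 1.70 at resolution 2.0 and with each library clustered alone, 1.26 with each cell weighted alike and 1.45 without cells over 40000 UMIs. The B-like ratio was 1.41 with stricter barcode filters, 1.41 with cycle genes kept and 1.13 with cells alike, and the NK/ILC1-like one 1.08 with cells alike. The immature neutrophil-like ratio was 0.665 with no doublets removed, 0.648 with stricter filters, 0.656 at resolution 2.0, 0.640 with libraries alone, 0.657 with cells alike and 0.638 rescaled to a median ratio of 1 over genes. With no doublets removed, ratios were 1.04 for all cells, 1.40 for monocyte-like, 1.06 for macrophage-like, 1.07 for precursor-like and 1.30 for tumour/epithelial-like cells. Stricter filters gave 1.22 for monocyte-like, 1.03 for macrophage-like and 1.07 for precursor-like cells. The monocyte-like ratio was 1.17 at resolution 2.0 and 3.88 with libraries alone, where its cycling difference was 9.57 points. Libraries alone gave 1.05 for macrophage-like and 1.11 for precursor-like cells, which were also at 1.11 with cycle genes kept and at 1.11 with cells alike. Cells alike gave 1.24 for tumour/epithelial-like cells. Rescaled ratios were 1.005 for all cells, 1.01 for monocyte-like, 1.01 for macrophage-like, 1.04 for precursor-like and 1.21 for tumour/epithelial-like cells.

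The precursor-like count of higher members (1) was 0 with no doublets removed or stricter filters, 2 at resolution 2.0 and 3 with cycle genes kept or libraries alone. Its count of lower members (0) was 2 with cycle genes kept or libraries alone and 1 at resolution 2.0 or rescaled. The tumour/epithelial-like count of lower members (1) was 0 with no doublets removed. The cycling difference over all cells was -0.691 points unthinned. In neutrophil-like cells it was 0.915 points after thinning to 1000 UMIs and -0.292 unthinned. The cause of these changes was not tested. No paired analysis was possible because there was 1 library per group, and for that reason no replicate could be left out.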

Other observations

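Classes with fewer than 50 cells in a library are given as values only. Among cDC1-like cells, the cross-presenting dendritic cells, 10 of 53 AKK (18.9%, 9.44 to 32.0) and 3 of 38 PBS cells (7.89%, 1.66 to 21.4) were cycling after thinning. Among cDC2-like cells 5 of 82 AKK (6.10%) and 2 of 21 PBS cells (9.52%) were. Among gamma-delta T-like cells 9 of 102 AKK cells (8.82%, 4.11 to 16.1) were, and 0 of 23 PBS cells, which allows a share of up to 13.04% (3 counts of the total, as for the limits that follow). Mature DC-like and nonclassical monocyte-like cells had 0 cycling cells of 21 and 41 in AKK (up to 14.3% and 7.32%) and 0 of 10 and 3 in PBS. In clusters without a name 11 of 230 AKK (4.78%) and 8 of 128 PBS cells (6.25%) were cycling.

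The barcodes removed as doublets held more cycling calls than the kept cells, 46 of 312 in AKK (14.7%) and 18 of 174 in PBS (10.3%). Spag5, a spindle gene in none of the cell cycle lists used, was among the 15 genes most like the members across classes, with a correlation of 0.972 over 20 points.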
